A study of Mus musculus with 4 samples.

Results

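The immunoglobulin heavy chain (Igh) locus was examined in mouse CD4+CD8+ double-positive (DP) thymocytes, cells that assemble T cell receptor genes and not antibody genes. Its members were all 215 segments with a symbol beginning Igh at the locus on chromosome 12 in the RefSeq gene table of GRCm38.p6, the assembly behind mm10, out of 49993 genes in that table. They ran from Igha at 113256204 to Ighv1-86 at 116009954 and were 183 variable (Ighv), 20 diversity (D), 4 joining (J) and 8 constant segments, and the record that spans the whole locus was not counted as a segment. Over the 2.9 Mb that hold the segments and their edges, 63 of the 15215 accessible regions of the wild type (WT) list and 32 of the 7645 regions of the Chaf1b knockout (KO) list were called. The assay was ATAC-seq, which reads open chromatin from the places where a transposase can insert adapters, in DP thymocytes sorted from the thymus of C57BL/6 mice. WT mice carried loxP-flanked Chaf1b alleles on both chromosomes and no Cre, and KO mice carried the same alleles together with Cd4-cre, a transgene in which Cd4 regulatory sequence drives the recombinase. Both groups thus carried the floxed alleles, and only the KO mice carried the transgene. Chaf1b encodes a subunit of chromatin assembly factor 1, which deposits histones on newly replicated DNA. Each group had 2 samples, which the authors combined into 1 list of regions. Ages, sexes, numbers of mice and the extent of deletion are not stated in any source used here.

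In B cell progenitors an antibody heavy chain gene is built by joining a D to a J segment and then a V segment to the DJ product. The RAG recombinase cuts at recombination signal sequences, each a heptamer and a nonamer held apart by a spacer, and the signal of a V segment lies directly at the 3' end of its coding sequence. The mouse locus is read towards lower coordinates, so the low-coordinate end of an Ighv segment is its 3' end and the high-coordinate end its 5' end. Leader and promoter are on the 5' side, but many segments are annotated without them. The constant genes lie lowest, then the J and D segments, then the families near D (Ighv2 and Ighv5), and the large Ighv1 family (also called J558), interspersed with Ighv8, fills the distal part. T lineage cells are known for D-to-J joining at Igh without full V-to-DJ joining.

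With 1 list per group there was no spread between replicates, and no difference between WT and KO could be tested. Intervals given below are exact Clopper-Pearson 95% intervals and cover counting error only. The fold enrichment is the authors' value at the summit of a region. The reads at a summit were worked out from the deposited fold enrichment and p, and the genome background worked out in the same way put the KO list at 0.752 times the depth of the WT list. Absence from a list means only that no region passed the caller, not that the site was closed, and in such bulk material fewer cells with an open site and less opening per cell cannot be told apart. The WT regions of the locus had folds from 4.64 to 14.8 and the KO regions from 5.88 to 11.8. Ighv segments resemble one another, and whether reads at them mapped to 1 place only was not tested.

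Regions of the Igh locus lay at and between the variable segments, with none within 1 kb of a D, J or constant segment. Of the 63 WT regions, 32 overlapped an Ighv segment, 8 more lay within 1 kb of one and 18 lay between Ighv segments at a larger distance. In the KO list these numbers were 21, 1 and 7 of 32. The 20 D segments, 4 J segments and 8 constant genes had 0 regions within 1 kb in either list. Within 1 kb of the 183 Ighv segments, 38 had a WT region (20.8%, 15.1 to 27.4) and 22 had a KO region (12.02%, 7.69 to 17.6). For comparison, 24.2% of the other RefSeq genes had a WT region and 14.8% a KO region within 1 kb, although most of these genes are longer than a segment. All 22 segments with a KO region also had a WT region.

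**Figure D1:**
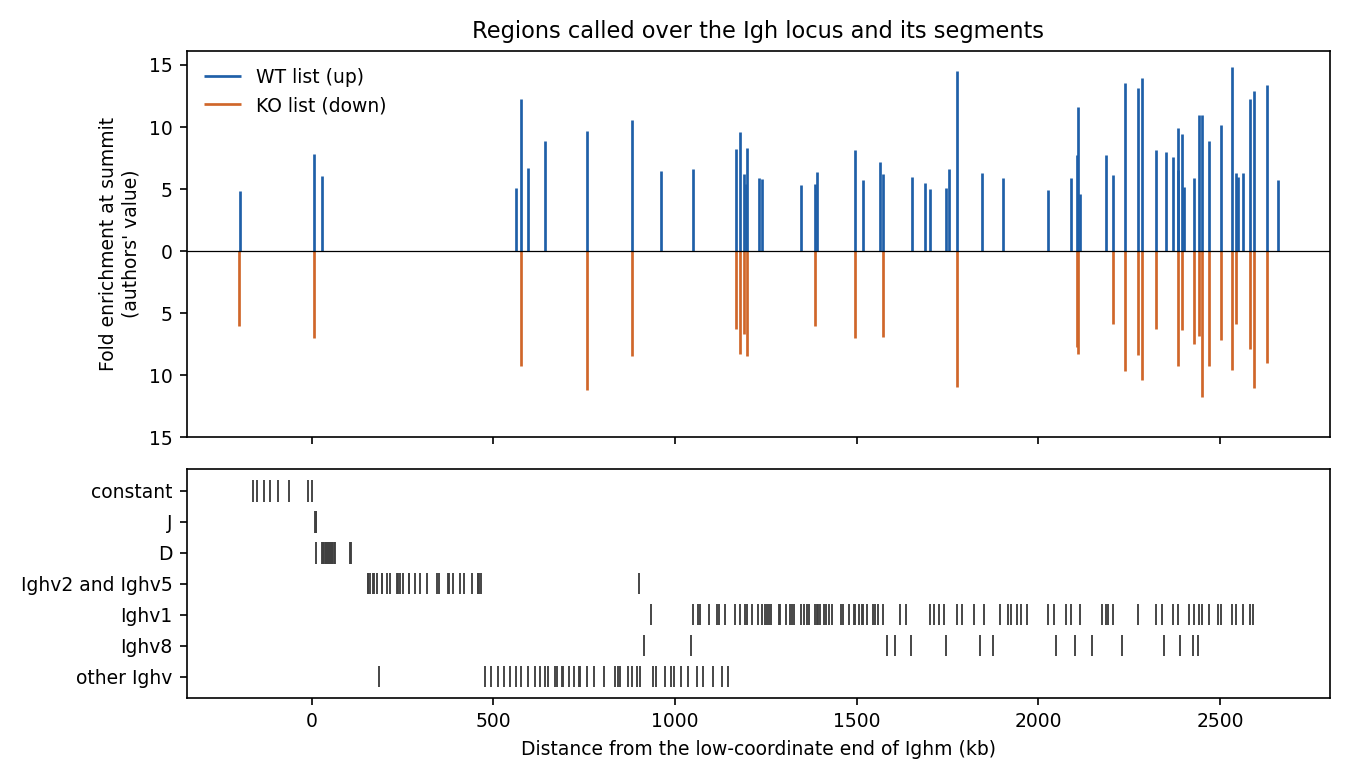
Fold enrichment at the summit (the authors' value) of every region called over the Igh locus, WT upwards and KO downwards, against the distance in kb from the low-coordinate end of Ighm; the lower panel marks each segment by its part or family. The variable part carries 58 WT and 29 KO regions, densest at its distal end.

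Few regions were called outside the variable part. The widest of the locus lay between Ighm, the gene of the first heavy chain class made, and the J segments, at chromosome 12, 113424259 to 113425477 in WT and 113424284 to 113425456 in KO. It began 1.53 kb above Ighm and ended 3.04 kb below Ighj4, in the interval that holds the switch repeats and the intronic enhancer of Ighm, and which of these it covers was not determined. Its summit had 58 reads in WT and 37 in KO, with a local background 4.78 times that of the genome in WT, the highest in the locus. Near the D segments a single WT region, with 14 reads, lay 1832 bp below Ighd3-2 at 113446177 to 113446382 and had no KO region. Below Igha, the constant gene of IgA that lies lowest, on the side where the 3' regulatory region of the locus is known to lie, the lists differed. WT had a region at 113222350 to 113222614 with 22 reads, and KO had one at 113217958 to 113218170 with 17 reads, 4.18 kb apart and neither matched by the other list. The KO region was the only one of the locus without a WT region. Above Ighv1-86, 2 WT regions lay 37.5 and 67.4 kb away, at the ends of the flanking genes Zfp386 and Vipr2. Both are counted in the locus totals and kept shares, and only that at Zfp386 had a KO region.

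On the Ighv segments the regions sat at one end. All 32 WT summits in regions that overlapped an Ighv segment were nearer its low-coordinate end, the 3' end where the recombination signal lies, than its high-coordinate end. The median summit lay 20.5 bp inside that end (quartiles -5.0 and 31.2 bp, range -124 to 98 bp, negative values being outside the segment), and 29 of 32 lay within 50 bp of it. None lay within 50 bp of the annotated 5' end, which in segments annotated without their leader is not the promoter. In KO all 21 summits were nearer the same end, at a median of 19.0 bp (range -94 to 93 bp), 16 of them within 50 bp. The position held for segments annotated with and without their leader. The 6 segments of 391 to 433 bp had their summits at a median of 14.5 bp from the 3' end and 410.5 bp from the other, and the 26 segments of 293 to 302 bp at 20.5 bp and 272.5 bp. The median region reached from 122.5 bp outside the 3' end to 164 bp into the segment. Where a region was called in both lists, WT and KO summits were 0 to 97 bp apart, with a median of 21.0 bp.

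**Figure D2:**
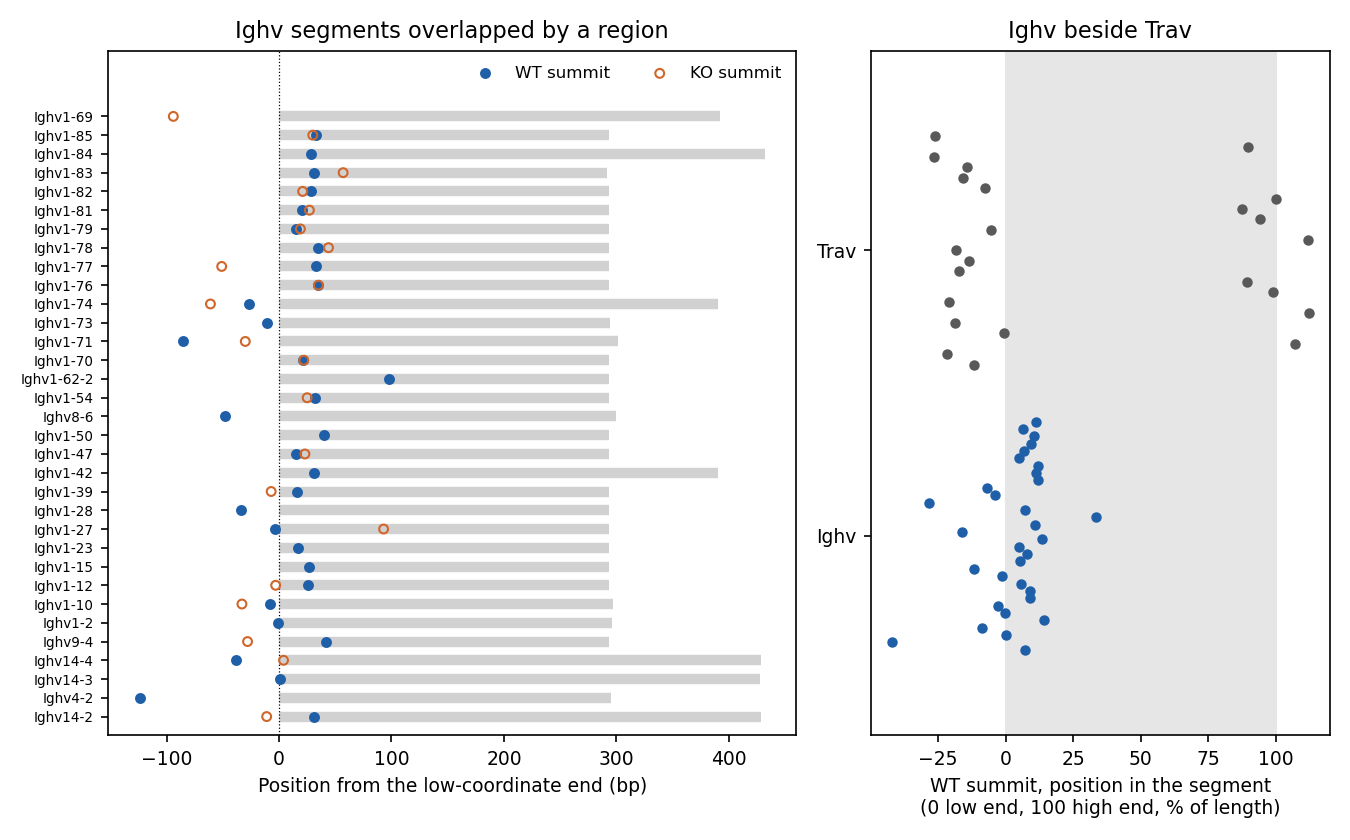
Left, position of the summit in bp from the low-coordinate (3') end for each Ighv segment overlapped by a region, with the annotated segment in grey, filled points for WT and open points for KO. Right, WT summits as a percent of segment length for Ighv and for the Trav segments of the T cell receptor alpha locus: the Ighv points gather at the low end, while Trav points fall near both ends. Only regions that overlap the annotated bases are drawn, and most of these Ighv segments are annotated without their leader.

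The T cell receptor alpha segments (Trav), which DP thymocytes do rearrange, were spread otherwise. Of 23 overlaps of a WT region with a Trav segment, 14 summits were nearer the low-coordinate end and 9 nearer the high-coordinate end. In KO these numbers were 4 and 5. The alpha locus is read towards higher coordinates, so its low-coordinate ends are 5' ends, opposite to Igh. The 23 overlaps fell on 20 different segments, 3 of which had a region at each end. No region of either list overlapped any of the 162 Igkv segments of the kappa light chain locus or the 35 Trbv segments of the T cell receptor beta locus. The difference between Ighv and Trav was not tested, since segments of a family share sequence and are not independent. The annotations differ too. Overlapped Trav segments were 438 to 1739 bp long, while 26 of the 32 Ighv overlaps were on segments of 293 to 302 bp, annotated without the leader. A region wholly outside the annotated bases, such as those 671 to 843 bp above some Ighv1 segments, was not counted here.

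The end can be seen in sequence at Ighv1-23, a variable segment with a WT region (chromosome 12, 114764359 to 114764575, 15 reads) and no KO region. RefSeq places the start of Gm40899, a long noncoding RNA read in the opposite direction, beside this end, so its promoter window (250 bases before to 50 after the start, GRCm38.p6) runs across it. The last 100 bases of that window, plus strand, chr12:114764358-114764457, are shown to make the signal visible, with the heptamer in capitals.
Gm40899 window end: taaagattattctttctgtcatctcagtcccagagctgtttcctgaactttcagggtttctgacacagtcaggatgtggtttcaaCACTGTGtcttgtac
The heptamer, CACAGTG on the coding strand, occupied 114764443 to 114764449 and ended 1 bp below the first base of Ighv1-23, at 114764450. At 22 bp from it stood 9 bases that matched 7 of 9 letters of the consensus nonamer ACAAAAACC, while the 9 bases at 23 and at 24 bp matched 5. The WT summit lay 21 bp above the centre of the heptamer. CACAGTG or its reverse complement is common, being present in 6.81% of 32851 RefSeq promoter windows of this length, and a match is no proof of a working signal.

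Families differed in how many of their segments had a region. Of the 92 Ighv1 segments, 31 had a WT region within 1 kb (33.7%, 24.2 to 44.3) and 19 a KO region (20.7%, 12.9 to 30.4). Of the 91 segments of all other families, 7 had a WT region (7.69%, 3.15 to 15.2) and 3 a KO region (3.30%, 0.685 to 9.33). The 32 segments of Ighv2 and Ighv5, the families nearest to D, had 0 in either list. Among the small families Ighv14 stood out by number, with a WT region at 3 of its 4 segments and a KO region at 2. Ighv9 had 1 of 4 in both lists, and Ighv4, Ighv8 and Ighv11 had 1 segment each with a WT region and none with a KO region. The other 10 of 16 families, with 63 segments, had none.

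Within Ighv1 the distal end of the locus carried most of the regions. Above 115.5 Mb, 18 of 23 Ighv1 segments had a WT region (78.3%, 56.3 to 92.5) and 13 a KO region (56.5%, 34.5 to 76.8). From 114.5 to 115.0 Mb the counts were 9 and 5 of 46 (19.6%, 9.36 to 33.9, in WT), and from 115.0 to 115.5 Mb they were 3 and 1 of 19 (15.8%, 3.38 to 39.6, in WT). From 114.0 to 114.5 Mb only 4 Ighv1 segments lie, of which 1 had a WT region and 0 a KO region. The segments share sequence, and the difference between stretches was not tested. The 7 interspersed segments above 115.5 Mb had no region within 1 kb in either list, a count that allows a share of up to 40.96%. All 7 belong to Ighv8, a family with a WT region at only 1 of its 16 segments in the whole locus. They cannot show whether families other than Ighv1 differ between the stretches. The 5 distal Ighv1 segments without a WT region were Ighv1-66, Ighv1-68, Ighv1-72, Ighv1-75 and Ighv1-80, of which Ighv1-68 is annotated as a pseudogene. Segments annotated as pseudogenes had fewer regions, with a WT region at 5 of 32 in Ighv1 (15.6%, 5.28 to 32.8) against 26 of the 60 others (43.3%, 30.6 to 56.8). Only 2 of the 32 pseudogenes lay above 115.5 Mb, against 21 of the 60 others. From 114.5 to 115.0 Mb, where both kinds were numerous, the counts were 3 of 22 pseudogenes and 6 of 24 others.

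**Figure D3:**
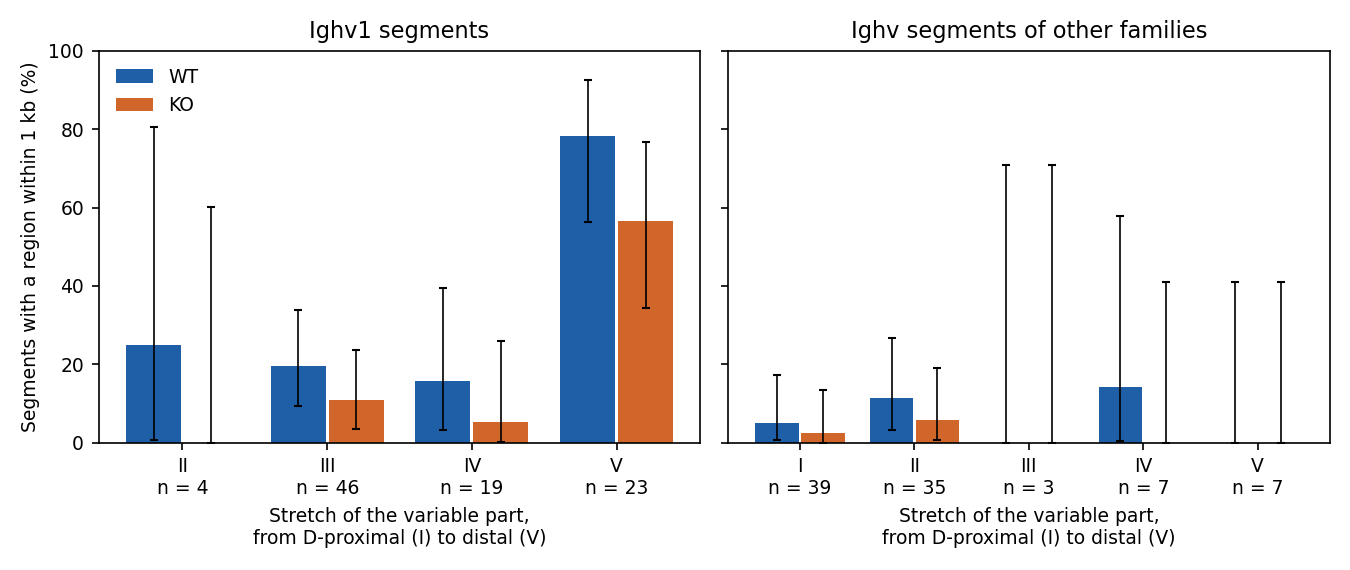
Percent of segments with a region within 1 kb, WT and KO, in 5 stretches of the variable part numbered from the D side, I (to 114.0 Mb), II (114.0 to 114.5 Mb), III (114.5 to 115.0 Mb), IV (115.0 to 115.5 Mb) and V (above 115.5 Mb), with exact 95% intervals for counting error and the number of segments below each pair. Ighv1 segments reach 78.3% in WT and 56.5% in KO in stretch V, where the 7 segments of other families, all of them Ighv8, have none.

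The strongest regions at variable segments were called in both lists. Ighv1-82 had the highest fold of the locus in WT, 14.8 with 39 reads at the summit, and 9.57 with 21 reads in KO. Ighv1-54 had 49 reads in WT (fold 14.5) and 26 in KO (fold 10.98), the most of any region on a segment in WT. Ighv1-70 had 40 and 19 reads, and Ighv1-86, at its 5' side, 43 and 24. These 4 segments of the Ighv1 family had 0.631 to 0.742 times the depth-scaled WT number in KO, and they were picked for a high WT fold. Of the 20 shared regions on segments, 13 were under the depth share and 7 above it. Ighv1-85 had 29 and 15 reads, Ighv1-81 had 31 and 14, and the neighbours Ighv1-77 and Ighv1-78 both had 34 in WT with 14 and 24 in KO. Nearer to D, Ighv14-2 had 28 and 18 reads and Ighv9-4 had 34 and 21. The order in WT was not kept in KO, where Ighv1-78 had the highest fold of the locus (11.8). Ighv1-76 was the only shared region of the locus with more reads in KO, 16 against 13 in WT.

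Segments with a WT region alone had weaker ones. By WT fold they were led by Ighv14-3 (8.85, 20 reads), Ighv1-67 (7.78, 20 reads, at its 5' side) and Ighv1-73 (7.61, 20 reads). After these came Ighv4-2, Ighv1-2 and Ighv1-28, which are annotated as pseudogenes, with 15, 18 and 19 reads. Ighv1-84, Ighv1-64, Ighv1-15 and Ighv1-42 had 13 to 15 reads. Over the whole locus, the 32 WT regions without a KO region had 10 to 22 reads at the summit with a median of 14, and the 31 with one had 13 to 58 with a median of 29. The 2 sets overlapped between 13 and 22 reads.

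The share of regions kept in KO was near that of the genome. Of the 63 WT regions, 31 had a KO region (49.2%, 36.4 to 62.1), where 46.2% of all WT regions did. Of the 32 KO regions, 31 had a WT region (96.9%, 83.8 to 99.9), where 92.6% of all KO regions did. On Ighv segments 20 of 32 WT regions were kept (62.5%, 43.7 to 78.9), and between Ighv segments 7 of 18 (38.9%, 17.3 to 64.3), intervals that overlap. At like fold the locus share was below that elsewhere in the weaker bins and above it in the stronger ones. With a WT fold under 5.5, 1 of 11 locus regions was kept (9.09%, 0.230 to 41.3) against 16.6% elsewhere. With a fold of 5.5 to 7 it was 5 of 22 (22.7%, 7.82 to 45.4) against 33.0%. With 7 to 10 it was 11 of 16 (68.8%, 41.3 to 89.0) against 66.9%, and from 10 upwards 14 of 14 against 95.04%. In the first 3 of these bins the share elsewhere lay within the interval of the locus share, as it did in the last, where the interval began at 76.8%. Intervals this wide do not show that the shares are alike. By summit reads, 2 of 12 locus regions with 15 to 19 WT reads were kept (16.7%, 2.09 to 48.4) against 32.2% elsewhere. In the other bins by reads the locus share was the higher.

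At regions in both lists the KO reads were somewhat under the depth of the list. Depth alone would put 42.9% of the summed summit reads in KO. The 31 shared Igh regions held 968 WT and 596 KO reads, a KO share of 38.1% (35.7 to 40.6), against 40.4% over the 6995 shared regions of the rest of the genome. The 31 include the region at the end of the flanking gene Zfp386, with 55 WT and 27 KO reads. The share was under that of depth at 22 of 31 regions, where 68.6% of all shared regions were, and no single region of the 31 had an interval that left out 42.9%. Among regions with 60 to 99 summed reads the locus share was 35.7% (32.0 to 39.5) and the share elsewhere 38.6%. At 40 to 59 summed reads the values were 38.95% and 37.96%, and at 20 to 39 they were 41.7% and 41.3%. Elsewhere the share was higher again at 100 summed reads and over, 46.1% in 277 regions, a range in which the locus had no region. A site counts as shared only where it was called in KO, and the part this has in the shares was not tested.

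**Figure D4:**
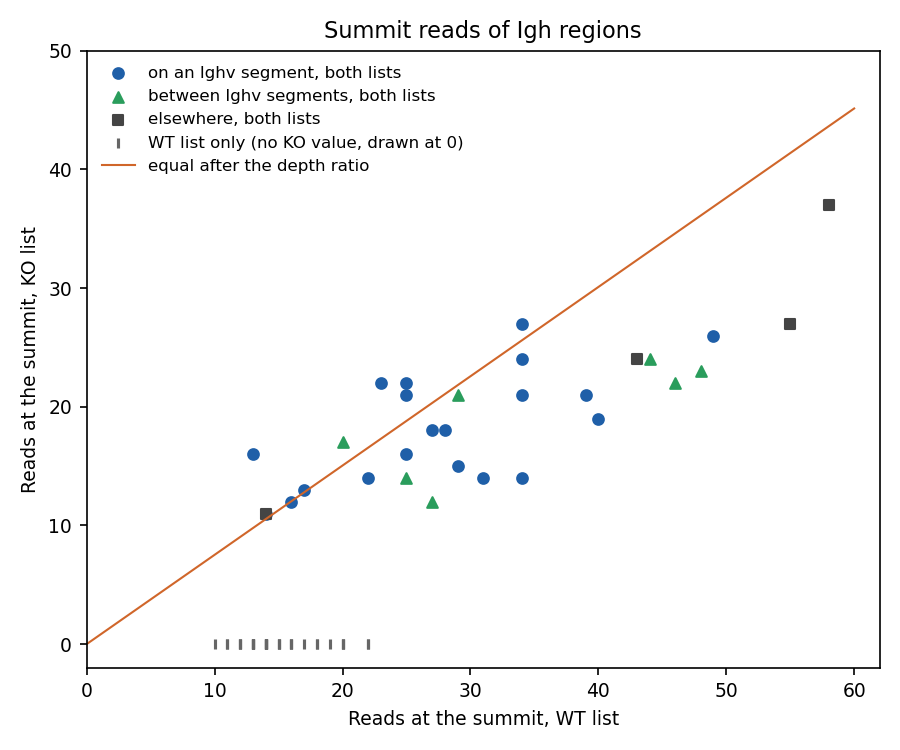
Reads at the summit in the KO list against the WT list for the 31 Igh regions in both lists, by place, with the line that the depth ratio of 0.752 gives; bars at 0 mark the WT reads of the 32 regions called in WT alone, which have no KO value. Of the shared regions, 22 lie below the line, and the regions in WT alone have 10 to 22 reads.

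Away from the segments, regions recurred on the 5' side of the Ighv8 segments. The Ighv8 segments themselves were nearly free of regions, with 1 of 16 in WT (Ighv8-6) and 0 in KO. Yet 7 of the 16 had a WT region within 8 kb above their 5' end, before the next Ighv segment and over 1 kb from it, against 4 of 92 Ighv1 segments and 0 of 75 in the other families. In KO the counts were 3, 1 and 0. The limit of 8 kb was set with these distances known. Within 5 kb the WT counts were 4 of 16, 4 of 92 and 0 of 75, and within 15 kb they were 7, 7 and 1. The 7 segments were Ighv8-5, Ighv8-6, Ighv8-7, Ighv8-10, Ighv8-12, Ighv8-13 and Ighv8-14, with the region 3.66, 5.71, 4.06, 4.49, 7.49, 5.59 and 4.06 kb above. The pattern was noticed in these data and was not tested. It is known that the distal Igh cluster holds Pax5-activated intergenic repeats upstream of Ighv8 segments, from which antisense transcripts start in B cell progenitors. Their positions were not in the sources used here, so whether the regions coincide with them was not determined.

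The strongest of these regions were shared by both lists. Above Ighv8-12 the region at 115655739 to 115656123 had 46 reads in WT (fold 13.6) and 22 in KO (fold 9.66). Above Ighv8-10 the region at 115524131 to 115524436 had 29 and 21 reads. Another, at 115527252 to 115527616 with 48 and 23 reads, lay 7.61 kb above Ighv8-10 but nearer to Ighv1-65, 4.44 kb below it. This second region is not the one counted for Ighv8-10. Above Ighv8-14 the counts were 27 and 12. The regions above Ighv8-5, Ighv8-6, Ighv8-7 and Ighv8-13 had 14, 16, 14 and 18 reads in WT and no KO region. Over the whole variable part, 7 regions between Ighv segments were in both lists, a different set from the 7 regions counted above Ighv8 segments. This shared set holds the regions above Ighv8-10, Ighv8-12 and Ighv8-14, and its other members lay nearest to Ighv1 segments. The shared set had a summed KO share of 35.8% (30.9 to 40.9), which is not a share of the Ighv8 regions alone. Its interval lay below the depth share of 42.9% and held the 40.4% of shared regions elsewhere.

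**Figure D5:**
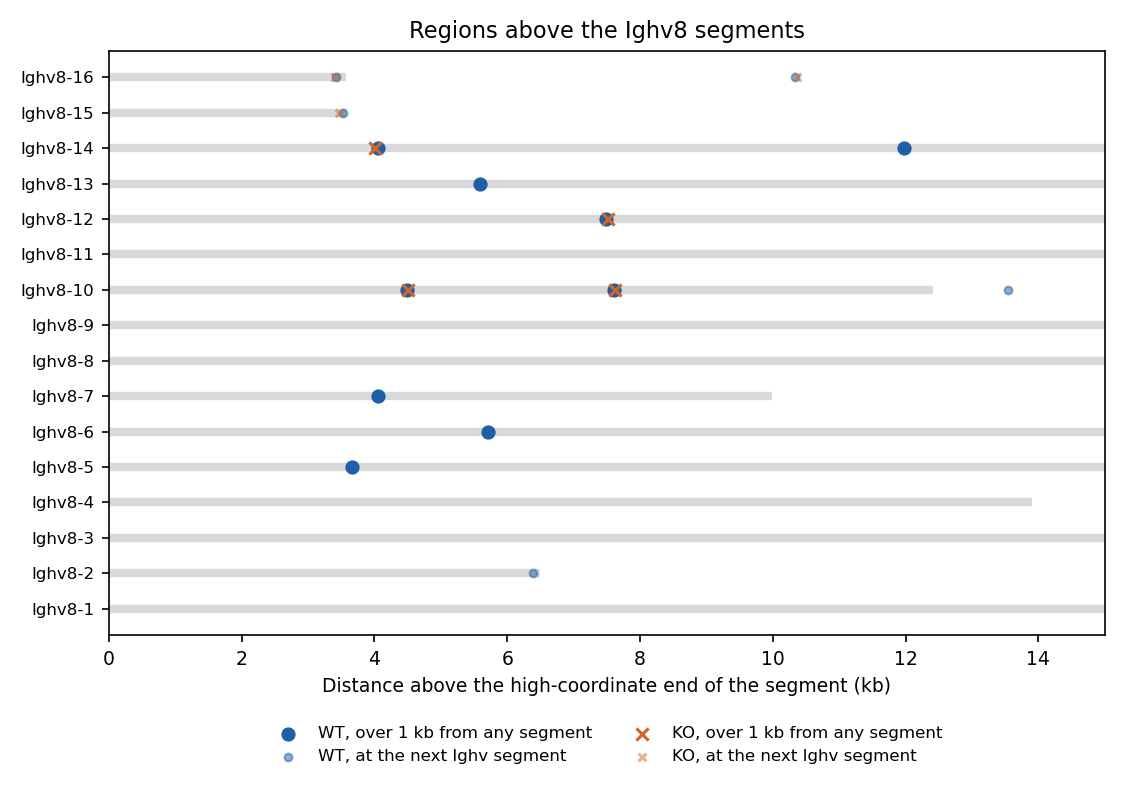
Start of each region within 15 kb above the high-coordinate (5') end of the 16 Ighv8 segments, in kb; grey bars run to the next Ighv segment, large symbols are regions over 1 kb from any segment and small ones lie at the next Ighv segment. In 7 rows a large WT point falls between 3.66 and 7.49 kb as the nearest region, with a KO cross at Ighv8-10, Ighv8-12 and Ighv8-14.

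Of the regions between segments, 2 lay on RefSeq promoter windows of long noncoding RNAs, which gives their sequence. Gm30948 starts at the region above Ighv8-7 (115262490 to 115262751, 14 reads in WT, none called in KO). Gm40900 starts at a region 11.4 kb above Ighv1-70 (115703601 to 115703977), with 44 reads in WT (fold 13.98) and 24 in KO (fold 10.4). A related window, that of Gm30996, lies on no region of either list. The Gm30948 window was 94.6% identical to that of Gm40900 and 97.3% identical to that of Gm30996 over their aligned bases. Stretches of 140 bases from the same starting letters, all plus strand, GRCm38.p6, show what the 3 share, with matches to CCCCCTGNTGG in capitals. This is a core of the motif of CTCF, the zinc finger protein that with cohesin anchors chromatin loops, and it was chosen after the sequences had been seen.
Gm30948: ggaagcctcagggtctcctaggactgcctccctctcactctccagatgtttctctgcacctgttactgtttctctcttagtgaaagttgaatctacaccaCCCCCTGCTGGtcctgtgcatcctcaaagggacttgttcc
Gm40900: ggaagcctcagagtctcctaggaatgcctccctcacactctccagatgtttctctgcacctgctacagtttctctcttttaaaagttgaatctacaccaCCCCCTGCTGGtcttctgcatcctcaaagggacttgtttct
Gm30996: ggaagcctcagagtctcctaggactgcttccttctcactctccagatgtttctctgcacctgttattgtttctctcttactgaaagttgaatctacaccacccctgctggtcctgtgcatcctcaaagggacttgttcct
These stretches are chr12:115262521-115262660, chr12:115703662-115703801 and chr12:115407520-115407659. The run of C that opens the core had 5 letters in Gm30948 and Gm40900 and 4 in Gm30996, and that was the only gap in the alignment of Gm30948 with Gm30996. The WT summit lay 35 bp from the centre of the core at Gm30948 and 34 bp from it at Gm40900, where the KO summit lay 23 bp away. Both windows also held a recombination signal heptamer past the stretches shown, at 115262682 to 115262688 and 115703822 to 115703828, which lay 4250 and 11640 bp from the nearest Ighv segment. The WT summit was 94 bp from it at Gm30948 and 25 bp at Gm40900, nearer there than to the core. In KO the order was the reverse, with the Gm40900 summit 36 bp from the heptamer and 23 bp from the core. CCCCCTGNTGG, on either strand, was present in 80 of 32851 RefSeq promoter windows (0.244%). Of these 80, 33 overlapped a WT region, against 7381 of the 32771 without it. For the heptamer, 313 of the 2236 windows with it overlapped a WT region, against 7101 of the 30615 without it. For the immunoglobulin octamer ATGCAAAT the counts were 105 of 570 and 7309 of 32281. Overlap with a WT region was thus more frequent with the core than without it, and less frequent with the heptamer or the octamer. With 3 related windows the sequence comparison is a description, and no binding was measured. The core was absent from the Gm40899 window beside Ighv1-23, and the immunoglobulin octamer ATGCAAAT was absent from all 5 such windows in the variable part on either strand, which says only that these letters are not there.

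Genes beside the locus and genes that act on it give the setting. Of 12 genes flanking the locus, 6 had a region at a gene end (within 1 kb of either annotated end) in WT and 3 in KO. On the constant side, Tedc1 had such a region with 61 reads in WT and 34 in KO, and Crip2 had 37 and 19. Pacs2 and Tex22, on the same side, shared a WT region with 20 reads and had none in KO. Crip1, Mta1, Tmem121 and Ptprn2 had none in either list. On the distal side Zfp386, a zinc finger gene beyond Ighv1-86, had 55 and 27, and Vipr2 had 14 in WT and none in KO. Adam6a and Adam6b, fertility genes that lie among and just above the D segments, had no region in either list. Of 23 genes for V(D)J recombination and factors of the Igh locus, regions were called at the ends of 15 in WT and of 11 of these in KO, where 34.6% of all protein-coding genes had a WT region and 59.4% of those also a KO region. Hmgb2, a cofactor of RAG cutting, had 50 reads in WT and 17 in KO, and Ctcf had 10 and 19. The cohesin genes Smc3 (23 and 11) and Smc1a (12 and 11), Yy1 (20 and 15), which takes part in locus looping, and Ezh2 (26 and 14) were also in both lists. The WT and KO regions at a gene end need not be the same site. At Smc3 they started at 53599886 in WT and 53600323 in KO, and at Ctcf at 105636147 and 105635977. The octamer-binding factor gene Pou2f1 had 28 and 16 reads, and its B cell coactivator Pou2af1 had 22 and 12. Rag1 (25 reads), Rag2 (22), Ikzf3 (13) and Ebf1 (16) had a WT region and no KO region. The cohesin gene Rad21, the octamer-binding factor gene Pou2f2, and Pax5, Dntt, Ikzf1, Tcf12, Irf4 and Runx1 had none in either list. Among markers of DP thymocytes, 8 of 13 had such a region in WT and 1, Cd8b1, in KO (12.5% of the 8). Cd4 and Cd8a, which define the sorted cells, had none in either list. Of the B cell genes reported, Ebf1 had the WT region given above, and none was called in either list at Cd79a and Cd79b, the signalling chains of the B cell receptor, or at Ms4a1, Pax5, Blnk, Vpreb1, Igll1, Cd22, Cd74 or Blk.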

How the data were processed

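ATAC-seq regions were called by MACS2 2.1.4 on build mm10 from both samples of a group together; tools, version and build are given per the submitters' processing notes and the pooling per the series' design text. FastQC, Trim Galore, Bowtie2, GATK, Picard and deepTools 3.4.1 are also named there; their settings, any read shift and any handling of reads with several matches are not stated in any source used here. The authors deposited, per region, a fold enrichment ratio at the summit, the -log10 of p and of q, and a score that was not used. Sequencing totals were not used here.

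Summit reads and background were solved from the fold, taken as (reads + 1) / (background + 1), and from p, taken as a Poisson tail. Solved whole numbers met the deposited -log10 p within 0.000172 in WT and 0.000127 in KO. The most frequent background, 1.37 in WT and 1.03 in KO, was taken as depth. Regions matched at 1 bp of overlap, and a segment had a region if one lay within 1000 bp. The solver and the overlap were tested on simulated data. Named segments were the 10 with the highest WT fold that also had a KO region, the 10 highest without one, and any with a KO region only, of which there were none; segments and genes named beside these for a position or an exception were chosen after their values were seen. Members and lists were chosen with earlier results of these data known. No Igh segment was in the RefSeq promoter table, so the planned octamer search in Ighv promoters was not run, and windows of 5 neighbouring noncoding RNAs were used. Alternatives varied the -log10 q, the overlap, the window and the length of the WT list. Computation was in Python 3.11.15 with pandas 2.3.3, numpy 2.4.6, Biopython 1.88, scipy 1.17.1 and matplotlib 3.10.9. One gene of the B cell marker list is not reported here, and no count over that list is given.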

Additional observations from a re-analysis of the deposited data

How the results depend on the processing

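No paired analysis was possible because each list pools both samples of its group, and for the same reason leaving out a replicate was not run. With a -log10 q of at least 10, the locus had 29 WT and 18 KO regions, Ighv segments with a region within 1 kb fell to 20 in WT and 12 in KO, and all 18 KO regions (100%) had a WT region. With the WT list limited to the length of the KO list by fold, 25 of 34 Igh regions were kept (73.5%), against 70.3% of all WT regions under the same limit. The other alternatives left each count within 1.5 times its main value and each share within its interval. The kept share of WT regions was 53.4% with a -log10 q of at least 5, 62.1% with at least 10, 55.0% within 1 kb of an Ighv segment, 48.4% without the region of high local background below Ighj4, and 49.2% between the outermost segments, a setting chosen after seeing the data. It was 31 of 63 under both other overlap rules. For the limits on q, the share over all WT or all KO regions under the same limit is not given here. Elsewhere the kept share also rose with fold, from 16.6% under 5.5 to 95.04% from 10 upwards. The locus shares under these limits thus cannot be set against the shares of the whole lists. The median summit position stayed at 20.5 bp with a -log10 q of at least 10, also added later, over 18 overlaps. Depth limits single sites: most Igh regions rest on few reads, and no KO share of a single region could be told from the depth share.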

Other observations

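A smaller set of WT regions stood on the 5' side of variable segments at like distances. Close to the segment, 5 regions lay 671 to 843 bp above Ighv1-64, Ighv1-65, Ighv1-67, Ighv1-74 and Ighv1-86, with 13, 10, 20, 17 and 43 reads at the summit in WT. Of these only the region by Ighv1-86 was in the KO list, with 24 reads. Farther up, 4 regions lay 3.45 kb above Ighv1-9, 3.63 kb above Ighv1-14, 3.56 kb above Ighv1-46 and 3.54 kb above Ighv1-83. They had 25, 13, 16 and 14 reads in WT, and the region above Ighv1-9 was in the KO list with 14. Other regions above Ighv1 segments lay farther, 8.11 kb above Ighv1-58 and 11.4 kb above Ighv1-70. These distances were noticed in the data, the segments share sequence, and no test was made.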
